A study of Homo sapiens with 45 samples.

Results

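The 50 genes described here encode the working parts of mitosis: the kinases and cyclins of mitotic entry, the chromosomal passenger complex, the spindle checkpoint, the machinery that ends sister cohesion, the kinetochore, spindle and cytokinesis proteins, and proteins that shape the mitotic chromosome. They were taken by gene symbol from a fixed list of functions that leaves out the kinesins apart from CENPE, with no measured value in the rule, and all 50 were found among the 29159 genes of the count tables. RNA was sequenced from 3 established neuroblastoma lines of adrenergic (ADRN) type, as control or after treatment with 1 μM of palbociclib (PB), a drug that blocks CDK4 and CDK6. SK-N-BE(2)C and IMR-32 carry amplified MYCN, and SH-SY5Y carries mutant ALK. Each line gave 5 control libraries, 5 after 24 h of PB and 5 after longer PB, which was 5 d except in SK-N-BE(2)C, where it was 7 d, so 45 libraries fell into 9 groups. The replicates were different passages plated in independent experiments, each line being a single culture model. Controls were collected with the 24 h libraries, so longer PB also differs from control in time in culture, and the effects of 7 d against 5 d and of the line cannot be told apart. The question addressed here is how deep each gene had fallen after 24 h of PB and how much of that fall was regained at the longer time.

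When CDK4 and CDK6 are active they phosphorylate RB, which frees E2F factors to drive the genes of DNA replication and, later in the cycle, the genes of mitosis. In cells held in G1 the hypophosphorylated RB relatives assemble the DREAM complex, a repressor that is recruited to promoters of mitotic genes through a short element called the CHR, and in cycling cells B-MYB and FOXM1 work through the same promoters. The proteins made from these genes attach chromosomes to microtubules, hold anaphase back until every kinetochore is attached, and then release the sister chromatids and divide the cell.

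Promoter sequence shows what many of the genes share that the choice of genes did not use. Of the 50 genes, 42 had an entry in the RefSeq promoter table (GRCh38.p14, 250 bases before to 50 bases after the start), and BUB3, AURKA, UBE2C, KNL1, CENPM, TPX2, BIRC5 and TTK had none. The CHR letters TTTGAA, or TTCAAA on the other strand, occurred in 28 of the 42 windows (66.7%), against 15.4% of all 27305 windows of the same length. The CCAAT box, CCAAT or ATTGG, occurred in 32 (76.2%), against 35.7% of all windows. Both occurred together in 21 (50.0%), against 6.08% of all windows. A full E2F site (TTTGGCGC, TTTCGCGC or TTCCCGCC on either strand) occurred in 6 (14.3%), against 4.3%. The 150 bases before the start are shown for 4 genes that carry both elements close together, and for AURKB, the gene with the deepest fall, where neither element lies in the stretch shown and CCAAT letters occur elsewhere in the window. Capitals mark the CHR and CCAAT letters, and in MKI67 a CHR and a CCAAT box overlap in 1 run of capitals.
CCNB2 (chr15:59104996-59105145, plus strand): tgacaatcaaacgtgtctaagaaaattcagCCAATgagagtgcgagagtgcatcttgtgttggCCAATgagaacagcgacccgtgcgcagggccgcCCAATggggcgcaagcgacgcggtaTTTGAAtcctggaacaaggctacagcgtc
PLK1 (chr16:23678739-23678888, plus strand): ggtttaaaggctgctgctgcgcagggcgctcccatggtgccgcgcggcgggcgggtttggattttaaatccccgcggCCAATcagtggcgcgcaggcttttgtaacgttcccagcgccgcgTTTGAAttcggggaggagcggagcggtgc
ESPL1 (chr12:53268149-53268298, plus strand): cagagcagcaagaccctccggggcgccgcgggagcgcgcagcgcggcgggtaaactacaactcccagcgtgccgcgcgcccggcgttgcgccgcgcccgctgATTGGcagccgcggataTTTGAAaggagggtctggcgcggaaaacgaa
MKI67 (chr10:128126424-128126573, minus strand): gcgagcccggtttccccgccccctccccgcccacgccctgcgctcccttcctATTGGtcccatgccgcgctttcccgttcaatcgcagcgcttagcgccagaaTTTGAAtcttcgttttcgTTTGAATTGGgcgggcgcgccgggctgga
AURKB (chr17:8210226-8210375, minus strand): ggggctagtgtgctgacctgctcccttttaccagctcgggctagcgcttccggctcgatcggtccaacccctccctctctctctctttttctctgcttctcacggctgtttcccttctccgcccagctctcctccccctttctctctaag

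The CHR nearest to the start begins 29 bases before it in CCNB2, PLK1 and MKI67 and 31 bases before it in ESPL1, with a CCAAT box upstream in each. A match is a description of letters and not of a bound site. Over the 3 lines the median 24 h log2 fold change was -2.65 among the 28 genes with CHR letters and -2.37 among the 14 without, and the ranges overlapped, from -4.19 to -1.28 and from -4.52 to -1.56. For the CCAAT box the medians were -2.49 among 32 genes with it and -2.43 among 10 without, and for the E2F site -3.05 among 6 with it and -2.39 among 36 without. The 21 genes with both CHR letters and a CCAAT box had a median of -2.71, the other 21 one of -2.38, and these too are descriptions.

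Libraries held 13459219 to 25441812 counts (median 18494528), and levels are given as CPM, the counts of a gene scaled to a common library size with TMM factors of the same line, in the order of replicates 1 to 5. Where 3 values stand without line names, they are for SK-N-BE(2)C first, IMR-32 next and SH-SY5Y last. The adrenergic markers PHOX2A, HAND2, GATA3 and DBH averaged at least 1 CPM in every group, and TH did in the groups of IMR-32 and SK-N-BE(2)C but not in those of SH-SY5Y. DBH averaged 25.2 CPM in control, 33.9 CPM at 24 h and 1.48 CPM at 5 d in IMR-32, where TH went the other way, with 14.1, 22.9 and 72.9 CPM. In SH-SY5Y DBH averaged 1736 CPM in control and 3523 CPM at 24 h, and in SK-N-BE(2)C 486 CPM and 888 CPM. The blood marker PTPRC did not exceed 0.167 CPM in any library. The 4 mesenchymal-type markers found in the tables, among them VIM and FN1, summed to between 332 and 901 CPM in IMR-32 controls and between 137 and 270.1 CPM at 5 d, and to between 1073 and 1517 CPM and between 755 and 903 CPM in the same groups of SH-SY5Y. In SK-N-BE(2)C they summed to between 543 and 749 CPM in control and between 352 and 644 CPM at 7 d, where VIM went from 557 to 291 CPM and FN1 from 37.2 to 110.4 CPM on average. The fibroblast markers COL1A1, DCN and LUM summed to between 160.1 and 210.0 CPM in SK-N-BE(2)C controls and between 230.0 and 454 CPM at 7 d, to between 78.0 and 142 CPM and between 24.1 and 36.1 CPM in IMR-32 control and 5 d, and to between 67.6 and 129 CPM and between 64.4 and 134 CPM in SH-SY5Y, with DCN and LUM under 1 CPM on average in all groups of IMR-32. From control to 7 d in SK-N-BE(2)C the mean of LUM went from 136 to 255 CPM and that of DCN from 34.0 to 79.7 CPM, while COL1A1 went from 15.6 to 6.11 CPM. The part of these shifts in the results below was not tested. Some libraries stood apart over the 50 genes. IMR-32 control replicate 5 was the highest control for all 50 genes, SH-SY5Y 5 d replicate 1 was the lowest 5 d library for all 50, SK-N-BE(2)C 7 d replicate 1 was the highest 7 d library for 45 and 7 d replicate 3 the lowest for 42. At 5 d in IMR-32 replicate 5 was the highest for 48 genes and replicate 2 the lowest for 42, and SH-SY5Y control replicate 2 was the lowest control for 45. Counts of called genes are given without single libraries where these move them by over 1.5 times. Pseudogenes named after them are annotated for 16 of the 50 genes, among them AURKA and UBE2C, and PTTG1 has close relatives, so such copies could affect their counts.

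After 24 h of PB all 50 genes had fallen in all 3 lines. Each passed the edgeR quasi-likelihood test, in which a call needs an absolute log2 fold change above 0.5 at an adjusted p under 0.05, while 11.0% of the genes tested were called lower in SH-SY5Y, 10.5% in IMR-32 and 10.6% in SK-N-BE(2)C. For every one of the 50, all 5 libraries at 24 h lay below all 5 controls, which held for 20.0%, 12.1% and 18.6% of all genes tested in the 3 lines. The median log2 fold change of the 50 was -2.20, -2.53 and -2.73, beside 0.02, 0.06 and 0.04 over all genes tested. Their median level was thus 21.7%, 17.3% and 14.98% of control, with a range from 1.88% for AURKB in SH-SY5Y to 69.2% for BUB3 in IMR-32. In these bulk libraries fewer cells passing through mitosis and less RNA of these genes per cell cannot be told apart.

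The summed CPM of the 50 genes shows the fall in every library. SK-N-BE(2)C had sums of 8639, 9021, 8586, 8404 and 8447 in control, 2053, 2181, 1631, 1605 and 1626 at 24 h, and 3128, 1698, 1423, 2442 and 2248 at 7 d. IMR-32 had sums of 7243, 7596, 7277, 6740.5 and 10343 in control, 1577, 1482, 1549, 1592 and 1795 at 24 h, and 3299.5, 2869.9, 3722, 3300.0 and 4622 at 5 d. SH-SY5Y had sums of 9110.4, 7307, 8038, 8487 and 8784 in control, 1281, 1166, 1213, 1508 and 1441 at 24 h, and 1286, 1835, 2375, 2728 and 2993 at 5 d. No treated library reached any control of its line. At 24 h SK-N-BE(2)C replicates 1 and 2 lay above replicates 3 to 5. All 5 longer libraries of IMR-32 lay above all 5 at 24 h, whereas in SK-N-BE(2)C 7 d replicates 2 and 3, and in SH-SY5Y 5 d replicate 1, lay within or below the range at 24 h.

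**Figure D1:**
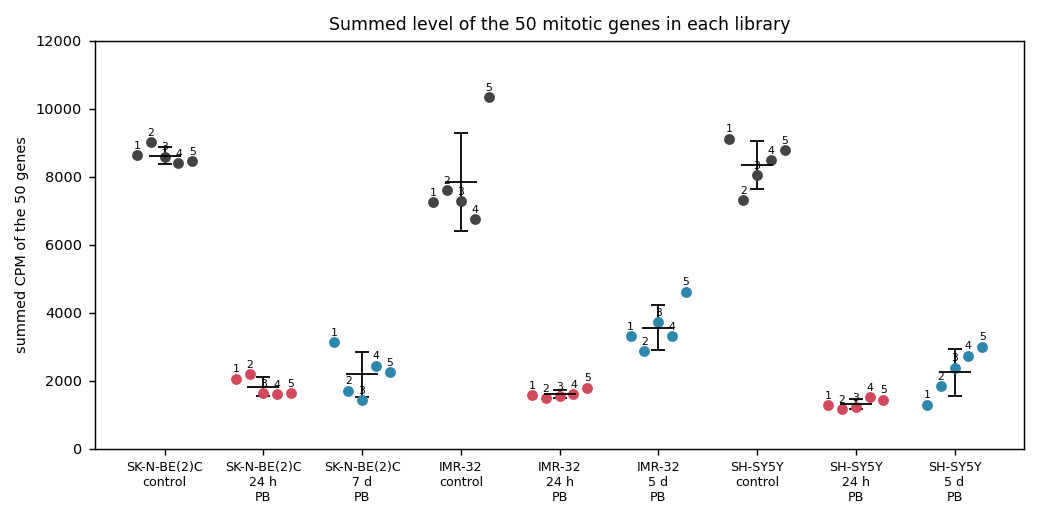
Summed CPM of the 50 genes (vertical axis) in each of the 45 libraries, by group, with replicate numbers beside the points, the group mean as a horizontal bar and the SD (n = 5) as the error bar. Every treated library lies below every control of its line, and the 5 d libraries of IMR-32 lie above its 24 h libraries, while those of SH-SY5Y at 5 d run from within its 24 h range upward and those of SK-N-BE(2)C at 7 d from below its 24 h range (replicate 3) to above it.

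At the longer time the genes were still below control. All 50 were called lower than control in SK-N-BE(2)C at 7 d, as they were in SH-SY5Y at 5 d, and 49 were in IMR-32 at 5 d, against 22.3%, 17.3% and 15.5% of all genes tested in those lines. The exception was BUB3 in IMR-32. Median levels were 28.6% of control in SH-SY5Y, 44.8% in IMR-32 and 26.5% in SK-N-BE(2)C.

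Against 24 h, the longer time brought a rise that passed the test for 47 of 50 genes in IMR-32 and 44 of 50 in SH-SY5Y, beside 10.8% and 10.5% of all genes tested. In SK-N-BE(2)C 9 of 50 passed, which is 18.0% of the genes and close to the 17.5% of all genes called higher there. None of the 50 was called lower than at 24 h in any line with edgeR, where 14.4%, 8.86% and 6.23% of all genes tested were in the 3 lines. DESeq2 also called 0 lower, and 0 had an unadjusted p under 0.05 in that direction. Without SK-N-BE(2)C 7 d replicate 1, HMMR was called lower in that line (log2 fold change -1.01, adjusted p = 0.00744). All longer libraries lay above all 24 h libraries for 46 genes in IMR-32, 14 in SH-SY5Y and 2 in SK-N-BE(2)C, beside 11.8%, 12.3% and 19.1% of all genes. The median log2 fold change was 1.41 in IMR-32, 0.91 in SH-SY5Y and 0.32 in SK-N-BE(2)C.

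The 9 genes that rose in SK-N-BE(2)C were AURKB, BIRC5, CDCA8, ESPL1, NUF2, KNL1, PRC1, DLGAP5 and NCAPH. Without 7 d replicate 1 AURKB, CDCA8, PRC1 and DLGAP5 were not called, with 0.55, 0.46, 0.31 and 0.60 on the log2 scale. CDCA8 was also not called without 24 h replicate 3 (0.50), and PRC1 (0.45 to 0.53) without any 1 of the controls, 24 h replicates 3, 4 or 5, or 7 d replicates 4 or 5. Except for BIRC5 these also rose in both other lines, and BUB3 and SMC4 passed in none of the 3. The count in SK-N-BE(2)C rested on single libraries: it was 5 without 7 d replicate 1 or 24 h replicate 3, and 19 without 7 d replicate 3. The shares over all genes in these fits are not given here. With replicates 1 and 2 left out of the 3 groups of that line the count was 13, beside 17.4% of all genes. In IMR-32 the count was 46 with replicate 5 left out of its 3 groups. In SH-SY5Y it was 46 without 5 d replicate 1, and 39 to 46 when single libraries were left out in turn. The mean log2 level of the 50 genes rose from 24 h to longer PB by 1.12 to 1.58 in the 5 replicate numbers of IMR-32, and by 0.83 to 1.29 in numbers 2 to 5 of SH-SY5Y with -0.06 in number 1. In SK-N-BE(2)C the difference was 0.58 to 0.73 in numbers 1, 4 and 5, with -0.37 and -0.20 in numbers 2 and 3. The numbers did not pair the 24 h and 7 d libraries of that line, so its values are not changes within a replicate.

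As a measure of return, the log2 rise from 24 h to longer PB was divided by the log2 fall at 24 h for each gene. The median share regained was 33.5% in SH-SY5Y, 54.0% in IMR-32 and 15.7% in SK-N-BE(2)C. The extremes were HMMR with -20.9% and NUF2 with 36.0% in SK-N-BE(2)C, PTTG1 with 7.99% and CENPI with 76.4% in IMR-32, and SMC4 with -3.24% and DSN1 with 53.9% in SH-SY5Y. The fall and the return share the 24 h libraries, so these shares are a description.

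**Figure D2:**
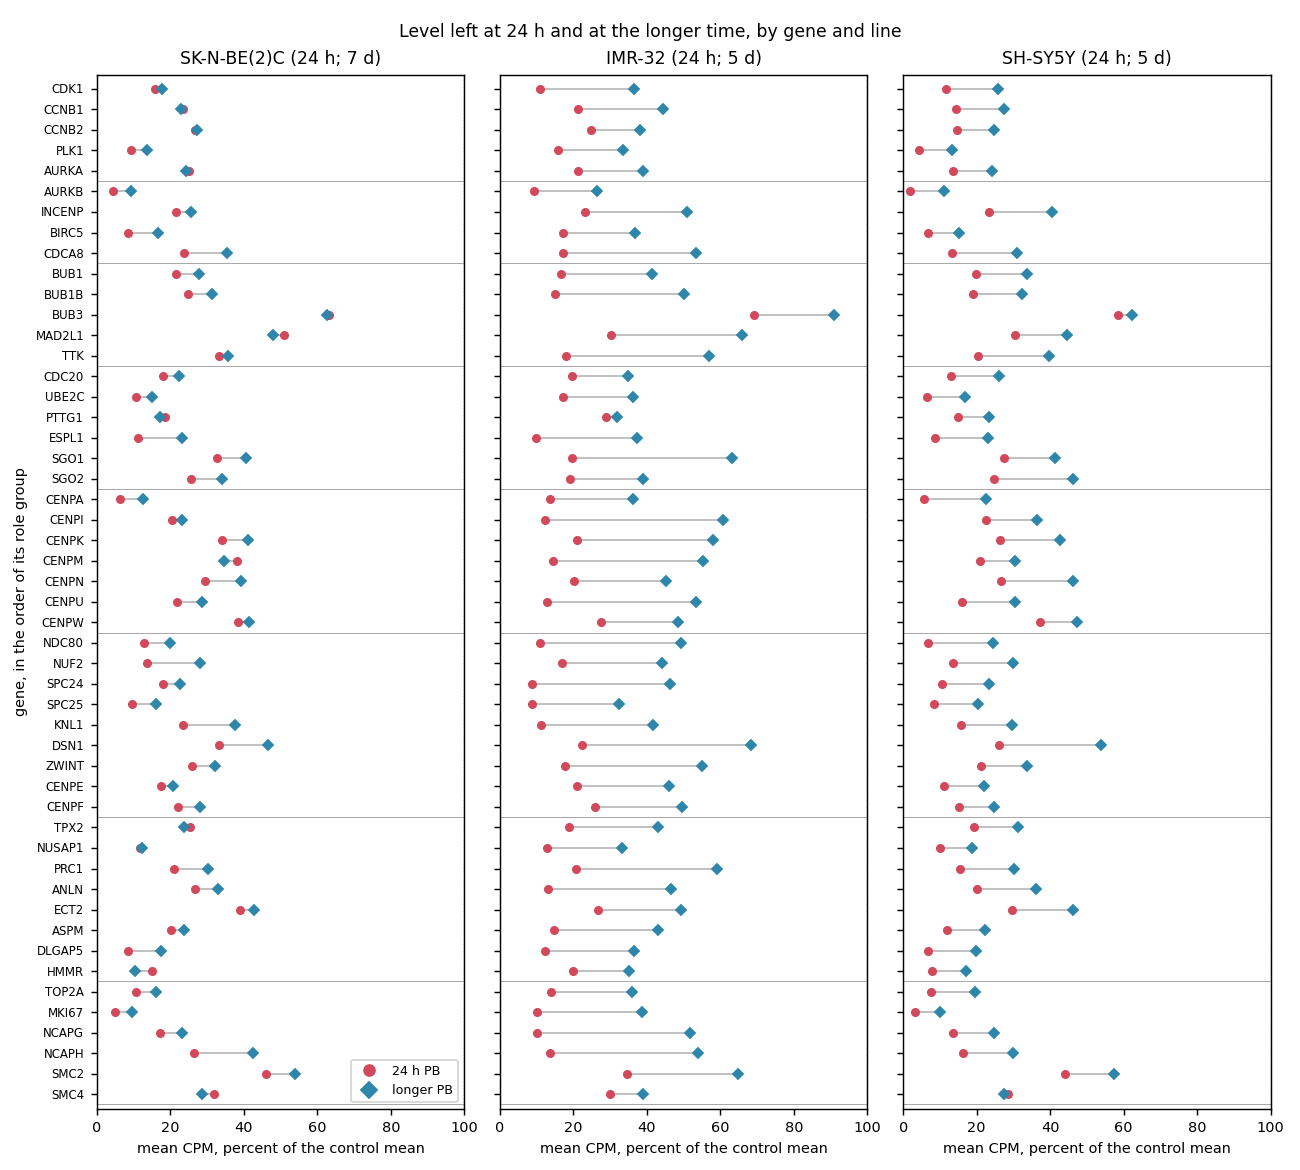
Mean CPM of each of the 50 genes as a percent of its control mean (horizontal axis) at 24 h of PB (circles) and at longer PB (diamonds), 1 panel a line, with genes in order of role group. BUB3 keeps the highest level at 24 h in each panel (63.3%, 69.2% and 58.5%), and the distance from circle to diamond is widest across the IMR-32 panel.

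**Figure D3:**
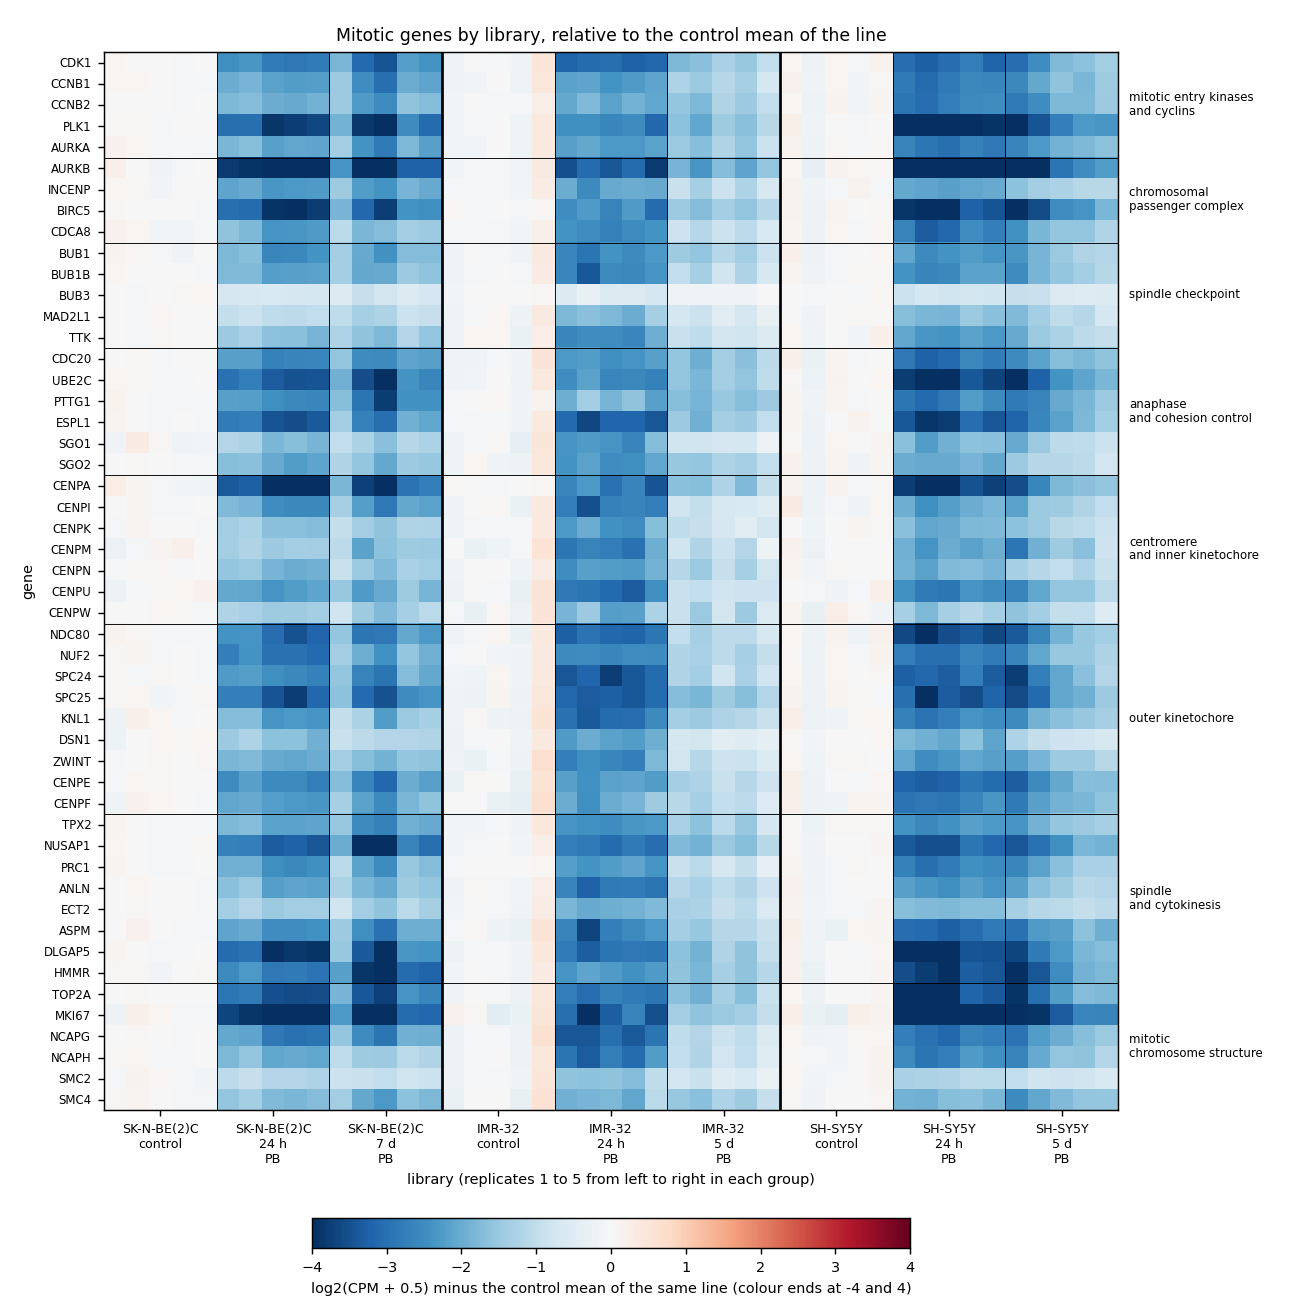
Level of each of the 50 genes (rows, by role group) in each of the 45 libraries (columns), as log2(CPM + 0.5) minus the control mean of the same line, with blue for below and red for above the control mean and colours ending at -4 and 4. Treated columns are blue for most genes. In IMR-32 at 5 d BUB3 stays near white, and so does CENPM in replicate 5. IMR-32 control replicate 5 is the reddest control column, and SH-SY5Y 5 d replicate 1 and SK-N-BE(2)C 7 d replicate 3 are the darkest columns of their groups.

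Mitotic entry is switched on by CDK1 with cyclins B1 and B2 (CCNB1 and CCNB2), helped by the kinases PLK1 and AURKA. All 5 genes fell at 24 h in each line. Their median level was 23.5%, 21.2% and 13.5% of control after 24 h, against 22.8%, 37.97% and 24.6% with longer PB. CCNB1 (chr5:68462962-68474072 on the plus strand, GRCh37) drew the most reads of the group, a measure that does not correct for transcript length. CCNB1 in SK-N-BE(2)C measured 277, 278, 256, 248 and 252 CPM in control, 65.3, 71.4, 59.1, 55.2 and 56.98 CPM at 24 h and 94.6, 46.2, 31.7, 66.4 and 59.9 CPM at 7 d. CCNB1 in IMR-32 measured 142, 145, 156, 139 and 216 CPM in control, 35.2, 36.3, 29.5, 32.2 and 36.4 CPM at 24 h and 66.5, 56.5, 70.95, 62.9 and 96.9 CPM at 5 d. CCNB1 in SH-SY5Y measured 218, 169, 202, 180.2 and 198 CPM in control, 26.7, 22.5, 26.6, 31.5 and 31.2 CPM at 24 h and 31.6, 45.8, 62.1, 53.5 and 71.9 CPM at 5 d. Treated libraries lay far below control in each line, and the longer libraries lay above all 24 h libraries in IMR-32 and SH-SY5Y but on both sides of them in SK-N-BE(2)C. The 24 h log2 fold changes of CCNB1 were -2.09 ± 0.21 (SE), -2.23 ± 0.15 (SE) and -2.80 ± 0.18 (SE) in the 3 lines, with adjusted p of 1.34e-06, 1.32e-08 and 7.87e-09. From 24 h to the longer time CCNB1 changed by 1.06 ± 0.15 (SE), adjusted p = 7.19e-05 in IMR-32 and by 0.93 ± 0.17 (SE), adjusted p = 0.000612 in SH-SY5Y, and in SK-N-BE(2)C it measured -0.05 ± 0.20 (SE), adjusted p = 0.848.

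PLK1 (chr16:23688977-23701688 on the plus strand), a kinase with tasks from spindle pole maturation to cytokinesis, was among the 5 genes with the deepest mean fall. PLK1 in IMR-32 measured 128, 130.4, 135, 122 and 179 CPM in control, 24.4, 24.7, 21.9, 23.4 and 15.02 CPM at 24 h and 43.9, 32.2, 50.6, 42.5 and 63.6 CPM at 5 d. PLK1 in SH-SY5Y measured 211, 160.3, 182, 172 and 184 CPM in control, 5.88, 5.53, 4.83, 10.2 and 11.5 CPM at 24 h and 6.27, 16.1, 26.9, 36.1 and 35.7 CPM at 5 d. The 24 h level of PLK1 was 15.8% of control in IMR-32, 4.18% in SH-SY5Y and 9.22% in SK-N-BE(2)C, and SH-SY5Y 5 d replicate 1 stayed within the 24 h range of its line. The fall was -4.56 ± 0.40 (SE) in SH-SY5Y and -2.66 ± 0.18 (SE) in IMR-32 on the log2 scale. Of its exon bases 12.8% are shared with genes on the opposite strand, and the strand used in counting is not given, so part of these counts could belong to those genes. In SK-N-BE(2)C none of the 5 genes of mitotic entry was called higher at 7 d than at 24 h with edgeR, and in IMR-32 and SH-SY5Y all 5 were.

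The chromosomal passenger complex corrects faulty attachments through the kinase AURKB, with INCENP as its scaffold and BIRC5 (survivin) and CDCA8 (borealin) as targeting subunits. All 4 genes fell at 24 h in each line. The median over the complex was 14.98%, 17.2% and 10.1% of control after 24 h, against 21.1%, 43.7% and 23.1% with longer PB. AURKB (chr17:8108051-8113918 on the minus strand) had the deepest mean fall of the 50 genes, with a mean log2 fold change over the lines of -4.52. AURKB in SK-N-BE(2)C measured 93.3, 82.4, 74.8, 78.9 and 80.8 CPM in control, 5.33, 4.95, 2.74, 2.92 and 2.42 CPM at 24 h and 15.5, 3.37, 2.45, 8.34 and 8.16 CPM at 7 d. AURKB in IMR-32 measured 108, 111, 109, 108 and 149 CPM in control, 9.78, 13.4, 10.3, 13.4 and 7.67 CPM at 24 h and 31.5, 22.5, 34.6, 26.7 and 38.5 CPM at 5 d. AURKB in SH-SY5Y measured 80.5, 61.4, 84.5, 80.3 and 78.8 CPM in control, 1.07, 0.824, 0.775, 2.61 and 1.97 CPM at 24 h and 0.797, 3.13, 9.57, 13.1 and 15.8 CPM at 5 d. The 24 h values in SH-SY5Y rest on few reads, the lowest library having 13 counts, and 5 d replicate 1 stayed at the 24 h level there. AURKB changed by -5.68 ± 0.58 (SE) in SH-SY5Y, by -3.42 ± 0.18 (SE) in IMR-32 and by -4.46 ± 0.39 (SE) in SK-N-BE(2)C on the log2 scale. Its rise to the longer time was 1.49 ± 0.17 (SE), adjusted p = 1.16e-05 in IMR-32, 2.49 ± 0.62 (SE), adjusted p = 0.00558 in SH-SY5Y and 0.99 ± 0.40 (SE), adjusted p = 0.0474 in SK-N-BE(2)C. In SK-N-BE(2)C the longer libraries overlapped those at 24 h, since replicates 2 and 3 at 7 d lay within the 24 h range. The rise there rests on single libraries: without 7 d replicate 1, which lay far above the other 4, AURKB measured 0.55 on the log2 scale at an edgeR adjusted p of 0.179 and was not called, and the call was also lost without any 1 of the controls, 24 h replicates 3, 4 or 5, or 7 d replicates 4 or 5.

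BIRC5 (chr17:76210267-76221717 on the plus strand), which is also known as an inhibitor of apoptosis, drew the most reads of the complex. BIRC5 in SK-N-BE(2)C measured 177, 176, 169.8, 173 and 169 CPM in control, 20.8, 19.9, 10.98, 10.1 and 11.9 CPM at 24 h and 47.3, 19.4, 12.2, 32.6 and 31.5 CPM at 7 d. BIRC5 in IMR-32 measured 343, 317, 336, 319.8 and 347 CPM in control, 58.8, 69.4, 51.4, 68.5 and 38.9 CPM at 24 h and 122, 98.6, 129, 110.2 and 149.99 CPM at 5 d. BIRC5 in SH-SY5Y measured 268, 207, 262, 240.3 and 252 CPM in control, 15.99, 9.53, 11.8, 25.3 and 22.1 CPM at 24 h and 7.39, 20.01, 43.7, 47.1 and 68.9 CPM at 5 d. The treated libraries lay below all controls, and the 5 d libraries of SH-SY5Y ran from below the lowest to above the highest 24 h library. At 24 h BIRC5 was left at 8.52%, 17.3% and 6.89% of control in the 3 lines. BIRC5 rose to the longer time by 1.09 ± 0.14 (SE), adjusted p = 3.7e-05 in IMR-32 and by 0.94 ± 0.30 (SE), adjusted p = 0.0147 in SK-N-BE(2)C. For SH-SY5Y the value was 1.13 ± 0.44 (SE), adjusted p = 0.0536, which was not called.

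The spindle checkpoint holds anaphase back while a kinetochore is unattached: TTK (MPS1) starts the signal, BUB1, BUB1B (BubR1) and BUB3 gather at the kinetochore, and MAD2L1 (MAD2) takes part in the inhibitor of CDC20. All 5 genes fell at 24 h in each line, but BUB3 and MAD2L1 were among the 5 of the 50 with the shallowest mean fall. The median over the checkpoint genes was 33.2%, 17.99% and 20.5% of control after 24 h, against 35.8%, 56.8% and 39.8% with longer PB. BUB3 (chr10:124913918-124929983 on the plus strand) drew the most reads of the group and had the shallowest mean fall of all 50 genes. BUB3 in SK-N-BE(2)C measured 183, 178, 184, 191 and 194 CPM in control, 116, 120.2, 121, 117 and 115 CPM at 24 h and 128, 98.9, 113, 128 and 116 CPM at 7 d. BUB3 in IMR-32 measured 246, 264, 267, 267 and 274 CPM in control, 182, 213, 182, 176 and 161 CPM at 24 h and 232, 232, 237, 237 and 261 CPM at 5 d. BUB3 in SH-SY5Y measured 182, 181, 188, 178 and 196 CPM in control, 102, 114, 107, 112 and 105 CPM at 24 h and 96.7, 100.2, 123, 129 and 126 CPM at 5 d. The groups did not overlap between control and 24 h in any line, and IMR-32 at 5 d came back to 91.02% of control, with 5 d libraries that overlapped the controls. BUB3 changed at 24 h -0.77 ± 0.07 (SE) in SH-SY5Y, -0.53 ± 0.07 (SE) in IMR-32 and by -0.66 ± 0.06 (SE) in SK-N-BE(2)C on the log2 scale. The call in IMR-32 lay close to the limit of 0.5: without 24 h replicate 5 the value was -0.49 and was not called. Against control the 5 d level of BUB3 in IMR-32 was -0.14 ± 0.07 (SE), adjusted p = 0.13, the single longer comparison of the 50 genes and 3 lines that was not called lower.

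MAD2L1 kept a mean of 30.4% of control at 24 h in SH-SY5Y, 30.2% in IMR-32 and 50.96% in SK-N-BE(2)C. MAD2L1 in SK-N-BE(2)C measured 177, 169, 187, 173 and 176 CPM in control, 91.3, 97.4, 86.8, 85.6 and 88.3 CPM at 24 h and 87.4, 70.3, 75.02, 97.4 and 92.5 CPM at 7 d. MAD2L1 in IMR-32 measured 177, 196, 212, 175 and 261 CPM in control, 57.5, 63.4, 57.6, 50.2 and 79.3 CPM at 24 h and 124, 111, 147, 127 and 163 CPM at 5 d. In SK-N-BE(2)C the 7 d libraries spread around those at 24 h, while in IMR-32 all 5 d libraries lay above all at 24 h. TTK went from 17.99% of control at 24 h to 56.8% at 5 d in IMR-32 (1.66 ± 0.14 (SE), adjusted p = 5.86e-07). BUB1 was left at 16.7% of control at 24 h in that line and stood at 41.4% at 5 d. In SK-N-BE(2)C the values of BUB1 were 21.6% at 24 h and 27.7% at 7 d, and those of BUB1B 24.8% and 31.3%, and none of the 5 checkpoint genes was called higher at 7 d than at 24 h with edgeR.

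Anaphase begins when CDC20, with the ubiquitin-conjugating enzyme UBE2C, turns on the anaphase-promoting complex, which destroys securin (PTTG1) and frees separase (ESPL1) to cut cohesin, while the shugoshins SGO1 and SGO2 guard cohesin at the centromere until then. All 6 genes fell at 24 h in each line. Their median came to 18.3%, 19.3% and 13.9% of control after 24 h, against 22.7%, 36.7% and 24.7% with longer PB. ESPL1 (chr12:53662083-53687422 on the plus strand) drew the most reads of the group. ESPL1 in SK-N-BE(2)C measured 214, 204, 191, 201 and 193 CPM in control, 28.6, 29.99, 17.8, 16.8 and 19.1 CPM at 24 h and 77.7, 30.7, 24.3, 52.97 and 47.1 CPM at 7 d. ESPL1 in IMR-32 measured 146, 149, 146, 138 and 205 CPM in control, 17.4, 11.9, 16.8, 16.8 and 14.1 CPM at 24 h and 56.3, 40.8, 60.6, 55.9 and 78.8 CPM at 5 d. ESPL1 in SH-SY5Y measured 157, 123, 142, 159 and 143 CPM in control, 13.4, 9.36, 9.90, 16.9 and 13.00 CPM at 24 h and 15.2, 23.2, 32.4, 41.5 and 55.8 CPM at 5 d. The longer libraries lay above the 24 h mean of their line without exception, with SH-SY5Y 5 d replicate 1 and SK-N-BE(2)C 7 d replicates 2 and 3 closest to it. ESPL1 changed at 24 h -3.52 ± 0.29 (SE) in SH-SY5Y, -3.35 ± 0.17 (SE) in IMR-32 and by -3.15 ± 0.27 (SE) in SK-N-BE(2)C on the log2 scale. It rose to the longer time in each line, by 1.04 ± 0.26 (SE), adjusted p = 0.00349, 1.92 ± 0.16 (SE), adjusted p = 6.34e-07 and 1.41 ± 0.29 (SE), adjusted p = 0.00139, and had the largest rise of the 50 genes in SK-N-BE(2)C.

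Securin was 1 of the 3 genes not called higher at 5 d than at 24 h in IMR-32, with BUB3 and SMC4. PTTG1 in IMR-32 measured 74.1, 80.01, 82.1, 71.9 and 87.97 CPM in control, 20.1, 29.6, 21.4, 25.4 and 17.2 CPM at 24 h and 23.99, 21.5, 27.6, 24.02 and 28.6 CPM at 5 d. The 5 d libraries of PTTG1 overlapped those at 24 h, and its level was 28.7% of control at 24 h and 31.7% at 5 d. Its change from 24 h to 5 d was 0.14 ± 0.13 (SE), adjusted p = 0.406, the smallest of the 50 genes in that line. In SH-SY5Y PTTG1 rose by 0.64 ± 0.24 (SE), adjusted p = 0.0404, and in SK-N-BE(2)C it measured -0.13 ± 0.27 (SE), adjusted p = 0.685. The difference between IMR-32 and SH-SY5Y in that rise was -0.53 ± 0.32 (SE), adjusted p = 0.25 and was not called. Among the shugoshins, SGO1 went from 19.5% to 63.1% of control in IMR-32 and SGO2 from 19.2% to 38.97%. SGO1 shares 15.8% of its exon bases with an antisense gene. CDC20 and UBE2C were left at 13.1% and 6.43% of control at 24 h in SH-SY5Y, and UBE2C has 5 annotated pseudogenes that could affect its count.

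At the centromere, nucleosomes that hold the histone variant CENPA are bound by the constitutive network, here CENPI, CENPK, CENPM, CENPN, CENPU and CENPW, on which the kinetochore is built. All 7 genes fell at 24 h in each line. The inner kinetochore median was 29.4%, 14.4% and 22.6% of control after 24 h, against 34.6%, 53.5% and 36.5% with longer PB. CENPA (chr2:26987157-27023935 on the plus strand) fell deepest of the group. CENPA in SK-N-BE(2)C measured 55.9, 49.8, 44.7, 42.8 and 41.3 CPM in control, 4.12, 4.40, 2.09, 1.76 and 2.46 CPM at 24 h and 12.7, 3.05, 1.83, 5.61 and 6.42 CPM at 7 d. CENPA in IMR-32 measured 34.1, 32.6, 31.7, 32.8 and 34.4 CPM in control, 4.99, 6.27, 3.72, 4.86 and 2.54 CPM at 24 h and 10.03, 9.91, 13.8, 9.32 and 16.9 CPM at 5 d. CENPA in SH-SY5Y measured 36.9, 28.5, 36.7, 32.2 and 34.6 CPM in control, 2.02, 1.65, 1.49, 2.56 and 2.08 CPM at 24 h and 2.39, 5.12, 9.24, 10.2 and 11.3 CPM at 5 d. In SH-SY5Y 4 of the 5 libraries at 5 d lay above all 24 h libraries, and in SK-N-BE(2)C 7 d replicates 2 and 3 lay within the 24 h range and replicates 1, 4 and 5 above it. CENPA was left at 6.33%, 13.5% and 5.80% of control at 24 h and stood at 12.6%, 36.2% and 22.6% at the longer time. The rise was 1.94 ± 0.34 (SE), adjusted p = 0.000377 in SH-SY5Y and 1.42 ± 0.21 (SE), adjusted p = 0.000106 in IMR-32. In SK-N-BE(2)C the change was 0.94 ± 0.42 (SE), adjusted p = 0.0665 and was not called.

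CENPI regained the largest share of its log2 fall in IMR-32, 76.4%. CENPI in IMR-32 measured 23.9, 26.9, 27.5, 22.3 and 35.01 CPM in control, 3.56, 1.87, 3.67, 3.86 and 3.49 CPM at 24 h and 15.4, 13.6, 17.1, 17.3 and 19.1 CPM at 5 d. CENPI in SH-SY5Y measured 41.8, 28.9, 32.2, 30.5 and 35.8 CPM in control, 8.38, 5.65, 6.92, 8.11 and 9.16 CPM at 24 h and 7.17, 11.6, 12.1, 14.2 and 16.6 CPM at 5 d. All CENPI libraries at 5 d lay above all 24 h libraries in IMR-32, while in SH-SY5Y replicate 1 at 5 d lay among those at 24 h. CENPI (chrX:100353177-100421115 on the plus strand) stood at 60.8% of control at 5 d in IMR-32 after 12.1% at 24 h, a rise of 2.32 ± 0.18 (SE), adjusted p = 2.26e-07, and in SH-SY5Y it went from 22.6% to 36.5%. CENPM in IMR-32 measured 22.2, 18.9, 20.03, 21.2 and 33.03 CPM in control, 2.62, 3.16, 2.92, 2.43 and 5.51 CPM at 24 h and 12.8, 9.59, 12.2, 9.85 and 19.4 CPM at 5 d. Replicate 5 was the highest CENPM library in each of the 3 groups, and the 5 d library of that number lay within the control range. CENPM rose by 1.95 ± 0.25 (SE), adjusted p = 3.71e-05 in IMR-32, and measured 0.54 ± 0.29 (SE), adjusted p = 0.139 in SH-SY5Y and -0.15 ± 0.15 (SE), adjusted p = 0.413 in SK-N-BE(2)C. CENPU (chr4:185615239-185655284 on the minus strand), which drew the most reads of the group, went from 103 ± 24.5 CPM (SD, n = 5) in control to 13.1 ± 3.17 at 24 h and 55.3 ± 2.96 at 5 d in IMR-32. In SH-SY5Y the same gene went from 88.7 ± 7.56 CPM to 14.3 ± 2.41 and 26.9 ± 10.6, and in SK-N-BE(2)C from 77.02 ± 7.66 to 16.8 ± 1.49 and 22.03 ± 5.44. CENPW had 1 of the 5 shallowest mean falls, to 38.3%, 27.5% and 37.1% of control at 24 h. CENPU and CENPN share 14.9% and 10.5% of their exon bases with genes on the opposite strand.

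The outer kinetochore catches microtubules with the NDC80 complex (NDC80, NUF2, SPC24 and SPC25), which joins KNL1 and DSN1 of the wider network, with ZWINT, CENPE and CENPF added at the outer face. All 9 genes fell at 24 h in each line. Over the outer kinetochore the median was 18.1%, 16.8% and 13.4% of control after 24 h, against 27.9%, 46.3% and 24.7% with longer PB. SPC25 and SPC24, the inner ends of the NDC80 rod, had the lowest levels left of the 50 genes in IMR-32, at 8.80% and 8.77% of control. SPC24 in IMR-32 measured 43.2, 41.6, 48.8, 40.9 and 60.6 CPM in control, 3.90, 4.77, 2.97, 3.97 and 5.01 CPM at 24 h and 19.99, 17.7, 26.3, 18.4 and 26.6 CPM at 5 d. SPC24 in SH-SY5Y measured 50.7, 41.1, 50.97, 49.00 and 49.2 CPM in control, 4.52, 5.00, 4.47, 6.80 and 4.37 CPM at 24 h and 3.08, 6.69, 10.9, 14.7 and 21.2 CPM at 5 d. In IMR-32 the 5 d libraries of SPC24 lay above all at 24 h and below all controls, while in SH-SY5Y 5 d replicate 1 lay below all at 24 h. The rise of SPC24 in IMR-32 was the largest of the 50 genes there, 2.40 ± 0.17 (SE), adjusted p = 1.09e-07, beside 1.15 ± 0.37 (SE), adjusted p = 0.0216 in SH-SY5Y. SPC25 (chr2:169690642-169769881 on the minus strand) changed by -3.37 ± 0.32 (SE), -3.50 ± 0.17 (SE) and -3.59 ± 0.35 (SE) in the 3 lines on the log2 scale.

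NUF2, the partner of NDC80, rose in all 3 lines. NUF2 in SK-N-BE(2)C measured 87.2, 91.6, 81.8, 84.1 and 82.1 CPM in control, 12.3, 15.9, 10.3, 10.4 and 9.38 CPM at 24 h and 32.1, 21.5, 15.5, 29.1 and 22.1 CPM at 7 d. Of its 7 d libraries, replicates 1, 2, 4 and 5 lay above all at 24 h and replicate 3 within them. The rise of NUF2 was 1.15 ± 0.20 (SE), adjusted p = 0.000423 in SH-SY5Y, 1.40 ± 0.10 (SE), adjusted p = 1.27e-07 in IMR-32 and 1.03 ± 0.17 (SE), adjusted p = 0.000111 in SK-N-BE(2)C. NDC80 rose by 1.81 ± 0.33 (SE), adjusted p = 0.000704 in SH-SY5Y, among the 3 largest rises there, and by 2.18 ± 0.15 (SE), adjusted p = 7.08e-08 in IMR-32. DSN1 was 1 of the 2 genes, with NCAPH, whose 7 d libraries all lay above all 24 h libraries in SK-N-BE(2)C, but its change of 0.49 ± 0.11 (SE) there stayed under the limit of 0.5. In SH-SY5Y DSN1 regained 53.9% of its log2 fall, the most of the 50 genes.

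CENPF (chr1:214776528-214837917 on the plus strand), a large protein that joins the kinetochore late in the cycle, drew the most reads of the group. CENPF in SK-N-BE(2)C measured 436, 545, 516, 483 and 467 CPM in control, 116, 121, 106, 99.5 and 97.5 CPM at 24 h and 194, 110.1, 83.6, 138 and 159 CPM at 7 d. CENPF in IMR-32 measured 812, 817, 674, 622 and 1273 CPM in control, 207, 147, 205, 224 and 300.4 CPM at 24 h and 379, 326, 410.3, 394 and 569.99 CPM at 5 d. CENPF in SH-SY5Y measured 948, 718, 736, 889 and 894 CPM in control, 107, 115, 112, 135 and 163 CPM at 24 h and 118, 184, 224, 234 and 273 CPM at 5 d. Controls and 24 h libraries did not overlap in any line, and IMR-32 replicate 5 was highest in each of its 3 groups. CENPF changed at 24 h by -2.18 ± 0.17 (SE), -1.95 ± 0.22 (SE) and -2.72 ± 0.19 (SE) in the 3 lines. Its change to the longer time was 0.94 ± 0.21 (SE), adjusted p = 0.00324 in IMR-32, 0.71 ± 0.18 (SE), adjusted p = 0.00606 in SH-SY5Y and 0.34 ± 0.17 (SE), adjusted p = 0.0916, not called, in SK-N-BE(2)C.

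Of the spindle and cytokinesis genes, TPX2 activates AURKA on spindle microtubules, NUSAP1, DLGAP5, HMMR and ASPM act on spindle fibres and poles, PRC1 bundles the central spindle, and ANLN and ECT2 build the contractile ring. All 8 genes fell at 24 h in each line. The median of these 8 was 20.6%, 16.8% and 13.6% of control after 24 h, against 23.6%, 42.9% and 26.3% with longer PB. TPX2 (chr20:30327074-30389608 on the plus strand) drew the most reads of the group. TPX2 in SK-N-BE(2)C measured 455, 433, 411, 408 and 413 CPM in control, 121, 128, 95.9, 95.5 and 96.9 CPM at 24 h and 149, 72.3, 64.5, 111 and 104 CPM at 7 d. TPX2 in IMR-32 measured 291, 294, 304, 279.5 and 421 CPM in control, 61.3, 57.96, 55.4, 61.9 and 63.4 CPM at 24 h and 127, 101, 148, 110.2 and 196 CPM at 5 d. TPX2 in SH-SY5Y measured 303, 254, 304, 298 and 301 CPM in control, 55.04, 47.8, 53.7, 64.8 and 58.8 CPM at 24 h and 56.3, 78.3, 98.6, 106 and 117 CPM at 5 d. The 7 d libraries of SK-N-BE(2)C lay on both sides of its 24 h libraries, with replicates 2 and 3 below all of them, and SH-SY5Y 5 d replicate 1 lay within its 24 h range. TPX2 changed at 24 h by -1.98 ± 0.18 (SE), -2.41 ± 0.16 (SE) and -2.38 ± 0.15 (SE) in the 3 lines on the log2 scale. It then rose by 1.18 ± 0.16 (SE), adjusted p = 5.41e-05 in IMR-32 and 0.70 ± 0.15 (SE), adjusted p = 0.00171 in SH-SY5Y, and measured -0.11 ± 0.18 (SE), adjusted p = 0.63 in SK-N-BE(2)C.

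HMMR, which binds the matrix sugar hyaluronan as well as spindle microtubules, had the lowest change from 24 h to 7 d in SK-N-BE(2)C, and DLGAP5 1 of the 3 largest rises. HMMR in SK-N-BE(2)C measured 90.3, 89.7, 80.2, 87.99 and 89.9 CPM in control, 14.6, 17.4, 11.6, 11.95 and 10.8 CPM at 24 h and 18.9, 5.47, 2.41, 9.95 and 9.14 CPM at 7 d. Only 7 d replicate 1 of HMMR lay above the 24 h libraries, and the other 7 d libraries lay below all of them. DLGAP5 in SK-N-BE(2)C measured 127, 119, 113, 114 and 117 CPM in control, 13.6, 14.4, 6.86, 7.66 and 7.35 CPM at 24 h and 40.6, 11.1, 5.82, 22.96 and 21.98 CPM at 7 d. For DLGAP5, 7 d replicates 1, 4 and 5 lay above all 24 h libraries, replicate 2 among them and replicate 3 below. From 24 h to 7 d HMMR measured -0.57 ± 0.35 (SE), adjusted p = 0.176, while DLGAP5 rose by 1.01 ± 0.39 (SE), adjusted p = 0.0377. The call of DLGAP5 was lost (0.60 to 0.98 on the log2 scale, adjusted p = 0.0642 to 0.143) without any of 7 d replicates 1, 4 and 5 or 24 h replicates 3, 4 and 5. In IMR-32 and SH-SY5Y both genes rose, HMMR by 0.82 ± 0.13 (SE) and 1.13 ± 0.39 (SE) and DLGAP5 by 1.57 ± 0.18 (SE) and 1.54 ± 0.31 (SE). ECT2 had a shallow fall, with 38.95%, 26.7% and 29.7% of control left at 24 h. PRC1, which stood at 59.05% of control at 5 d in IMR-32, shares 34.3% of its exon bases with an antisense gene.

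The last group shapes mitotic chromosomes: TOP2A untangles sister DNA, MKI67 (the Ki-67 antigen used to score proliferation) coats the chromosome surface, and NCAPG, NCAPH, SMC2 and SMC4 are condensin subunits, the latter pair serving both condensins. All 6 genes fell at 24 h in each line. The median of these 6 was 21.8%, 13.7% and 14.99% of control after 24 h, against 25.9%, 45.2% and 26.2% with longer PB. TOP2A (chr17:38544777-38574148 on the minus strand) drew the most reads of the group. TOP2A in SK-N-BE(2)C measured 775, 804, 771, 759.9 and 764 CPM in control, 104, 111, 66.7, 64.9 and 65.9 CPM at 24 h and 211, 73.2, 57.5, 149.5 and 127 CPM at 7 d. TOP2A in IMR-32 measured 727, 799, 749, 682 and 1057 CPM in control, 116, 96.3, 122, 112 and 107 CPM at 24 h and 249, 207, 313, 246 and 426 CPM at 5 d. TOP2A in SH-SY5Y measured 759.6, 621, 714, 733 and 775 CPM in control, 43.03, 41.8, 41.4, 77.7 and 69.4 CPM at 24 h and 46.4, 88.5, 152, 214 and 207 CPM at 5 d. No treated library overlapped a control, and in SH-SY5Y 5 d replicate 1 lay within the 24 h range while replicates 2 to 5 lay above it. TOP2A changed at 24 h by -3.23 ± 0.30 (SE), -2.86 ± 0.18 (SE) and -3.72 ± 0.37 (SE) in the 3 lines on the log2 scale. It rose to the longer time by 1.38 ± 0.17 (SE), adjusted p = 2.52e-05 in IMR-32 and 1.37 ± 0.35 (SE), adjusted p = 0.00604 in SH-SY5Y, and measured 0.58 ± 0.28 (SE), adjusted p = 0.0914 in SK-N-BE(2)C.

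MKI67 (chr10:129894923-129924687 on the minus strand) had the deepest mean fall after AURKB. MKI67 in SK-N-BE(2)C measured 641, 838, 773, 712 and 705 CPM in control, 57.4, 48.6, 24.99, 24.3 and 24.3 CPM at 24 h and 149, 25.9, 12.1, 85.5 and 82.05 CPM at 7 d. MKI67 in IMR-32 measured 623, 582, 408, 461 and 788 CPM in control, 68.1, 30.96, 56.3, 87.2 and 48.4 CPM at 24 h and 218, 181, 199.5, 215 and 290.2 CPM at 5 d. MKI67 in SH-SY5Y measured 827, 582, 535, 817 and 761 CPM in control, 17.7, 13.7, 11.9, 32.4 and 39.1 CPM at 24 h and 10.7, 45.3, 68.5, 113 and 111 CPM at 5 d. Its 7 d libraries in SK-N-BE(2)C ran from below the lowest to above the highest 24 h library, and in SH-SY5Y 5 d replicate 1 lay below all at 24 h and replicates 2 to 5 above all. MKI67 was left at 4.90%, 10.2% and 3.26% of control at 24 h and stood at 9.65%, 38.6% and 9.90% at the longer time. Its rise was 1.92 ± 0.24 (SE), adjusted p = 4.04e-05 in IMR-32 and 1.59 ± 0.50 (SE), adjusted p = 0.02 in SH-SY5Y, and in SK-N-BE(2)C the value was 0.97 ± 0.49 (SE), adjusted p = 0.106.

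Among the condensin subunits NCAPG was called higher at 5 d than at 24 h in IMR-32 and SMC4 was not, and the difference between these genes was not tested. NCAPG in IMR-32 measured 111, 125, 126, 110.3 and 198 CPM in control, 11.7, 11.6, 15.6, 12.2 and 16.7 CPM at 24 h and 64.6, 58.1, 71.3, 64.4 and 87.04 CPM at 5 d. SMC4 in IMR-32 measured 395, 466, 461, 386 and 705 CPM in control, 123, 130.1, 136, 112 and 224 CPM at 24 h and 165, 149, 201, 175 and 248 CPM at 5 d. All 5 d libraries of NCAPG lay above all at 24 h, while those of SMC4 overlapped them through 24 h replicate 5, and within each of the 5 replicate numbers SMC4 was higher at 5 d than at 24 h. From 24 h to 5 d in IMR-32 NCAPG rose by 2.35 ± 0.17 (SE), adjusted p = 1.97e-07 and SMC4 measured 0.37 ± 0.20 (SE), adjusted p = 0.177. Without 24 h replicate 5 SMC4 was called higher there, with 0.58 on the log2 scale, and with the replicate number as a block it measured 0.40 at an edgeR adjusted p of 0.00148, under the fold a call needs. SMC4 measured -0.06 ± 0.14 (SE), adjusted p = 0.754 in SH-SY5Y and -0.16 ± 0.13 (SE), adjusted p = 0.319 in SK-N-BE(2)C, the lowest signed change of the 50 genes in SH-SY5Y and, after HMMR, the next to lowest in SK-N-BE(2)C. SMC2 had the shallowest mean fall after BUB3, with 46.1%, 34.6% and 44.2% of control left at 24 h. NCAPG and SMC4 share 33.7% and 22.0% of their exon bases with genes on the opposite strand.

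**Figure D4:**
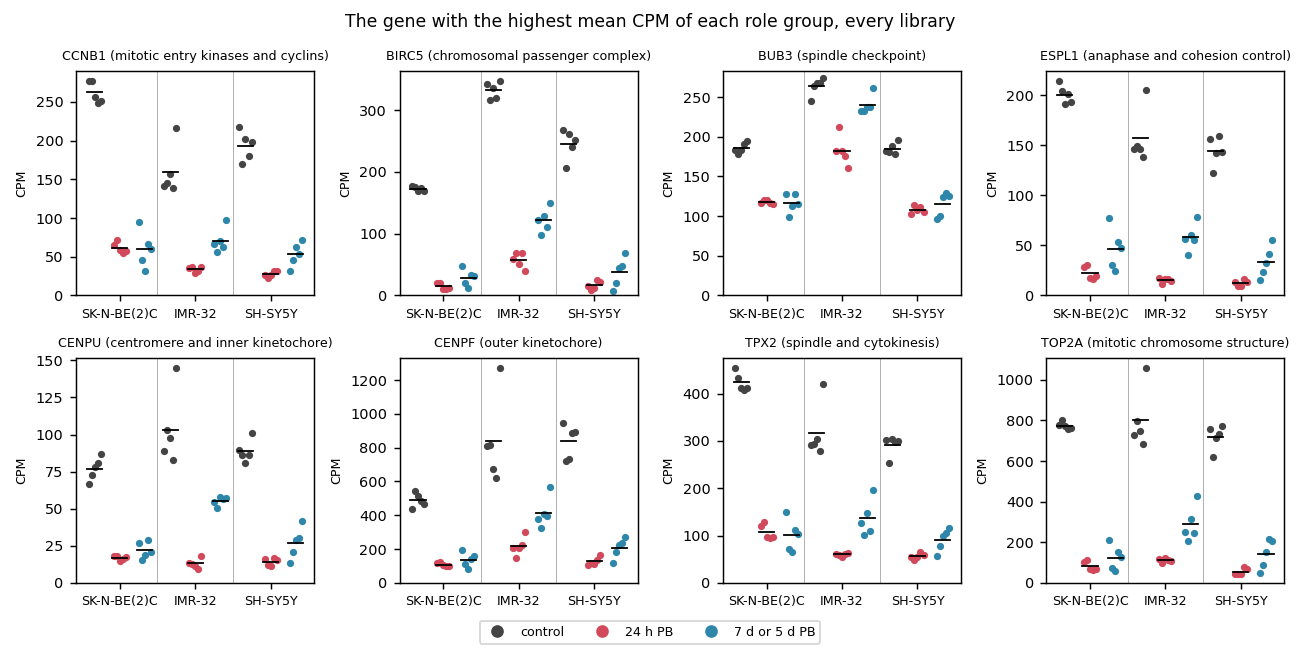
CPM (vertical axis, from 0) of the gene that drew the most reads in each of the 8 role groups, in all 45 libraries, by line, with 1 point a library in replicate order and a bar at the group mean. Treated libraries lie below all controls of their line for 7 of the genes, and for BUB3 the 5 d libraries of IMR-32 (232 to 261 CPM) reach into the control range.

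Whether the lines differed in depth was tested on the difference of their log2 fold changes in a fit of all 45 libraries. At 24 h SK-N-BE(2)C fell less than IMR-32 for 9 genes (MAD2L1, TTK, CENPK, CENPM, KNL1, DSN1, ANLN, ECT2 and NCAPH), where 2.78% of all genes were called in that direction, and more than IMR-32 for none, where 1.71% were. SK-N-BE(2)C fell less than SH-SY5Y for 4 genes (CCNB2, AURKA, CDCA8 and MAD2L1), beside 0.946% of all genes, and more for none, beside 1.09%. IMR-32 fell less than SH-SY5Y for PLK1 and AURKB, beside 1.04% of all genes, and more for none, beside 2.03%. These counts of none were by edgeR, and 3, 0 and 6 genes had an unadjusted p under 0.05 in the direction of the deeper fall.

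Between SK-N-BE(2)C and IMR-32 CENPM showed the largest called difference at 24 h, 1.42 ± 0.32 (SE), adjusted p = 0.0041. CENPM in SK-N-BE(2)C measured 47.97, 53.3, 61.6, 64.96 and 57.98 CPM in control and 21.2, 24.4, 20.5, 21.8 and 21.3 CPM at 24 h. It kept 38.2% of control there and 14.4% in IMR-32. The contractile ring gene ANLN differed by 1.02 ± 0.21 (SE), adjusted p = 0.00126 and the checkpoint kinase TTK by 0.89 ± 0.20 (SE), adjusted p = 0.00359. MAD2L1 was the gene for which SK-N-BE(2)C fell less than both other lines, by 0.76 ± 0.18 (SE), adjusted p = 0.00572 against IMR-32 and by 0.71 ± 0.18 (SE), adjusted p = 0.0173 against SH-SY5Y. Between IMR-32 and SH-SY5Y the differences were 2.23 ± 0.59 (SE), adjusted p = 0.0212 for AURKB and 1.88 ± 0.47 (SE), adjusted p = 0.0147 for PLK1. The counts at 24 h were not steady: with SK-N-BE(2)C replicates 1 and 2 left out of all its groups 2 genes differed from IMR-32 and 0 from SH-SY5Y, where edgeR gave 6 at an unadjusted p under 0.05. With the replicate number as a block they were 14, 7 and 12, the last made of 10 genes with the lesser fall in IMR-32 and 2 with the lesser fall in SH-SY5Y. Without SH-SY5Y 5 d replicate 1 the count between IMR-32 and SH-SY5Y was 9, of which 2 had the lesser fall in SH-SY5Y, and with IMR-32 replicate 5 left out of its groups it was 5. The count of 4 between SK-N-BE(2)C and SH-SY5Y fell to 1 or 2 in 15 of 30 fits with a single library left out. The shares over all genes in these fits are not given here.

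IMR-32 and SH-SY5Y, both treated for 5 d, also differed in the return. The rise from 24 h to 5 d was larger in IMR-32 for 16 genes, which is 32.0% of the 50, beside 6.91% of all genes, and larger in SH-SY5Y for 0 with edgeR, beside 7.78%. An unadjusted p under 0.05 was reached by 18 genes in the direction of IMR-32 and 0 in the other. The 16 were BUB1B, MAD2L1, TTK, SGO1, CENPI, CENPK, CENPM, CENPU, SPC24, KNL1, DSN1, ZWINT, ANLN, NCAPG, NCAPH and SMC2. They include 4 of the 7 genes of the inner kinetochore, 4 of the 9 of the outer kinetochore, 3 of the 5 of the checkpoint, 3 of the 6 of chromosome structure, 1 of the 6 of anaphase, 1 of the 8 of spindle and cytokinesis, and none of the mitotic entry or chromosomal passenger genes, and the groups were not compared by a test. The largest were 1.61 ± 0.30 (SE), adjusted p = 0.00013 for CENPI, 1.46 ± 0.31 (SE), adjusted p = 0.000616 for NCAPG and 1.39 ± 0.36 (SE), adjusted p = 0.0046 for CENPM. At the other end, AURKB measured -1.02 ± 0.61 (SE), adjusted p = 0.24, PLK1 -0.60 ± 0.48 (SE), adjusted p = 0.407 and CENPA -0.55 ± 0.48 (SE), adjusted p = 0.452, and none of them was called. The count was 16 with the block and with IMR-32 replicate 5 left out of its groups, and 13 to 17 when single libraries were left out.

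**Figure D5:**
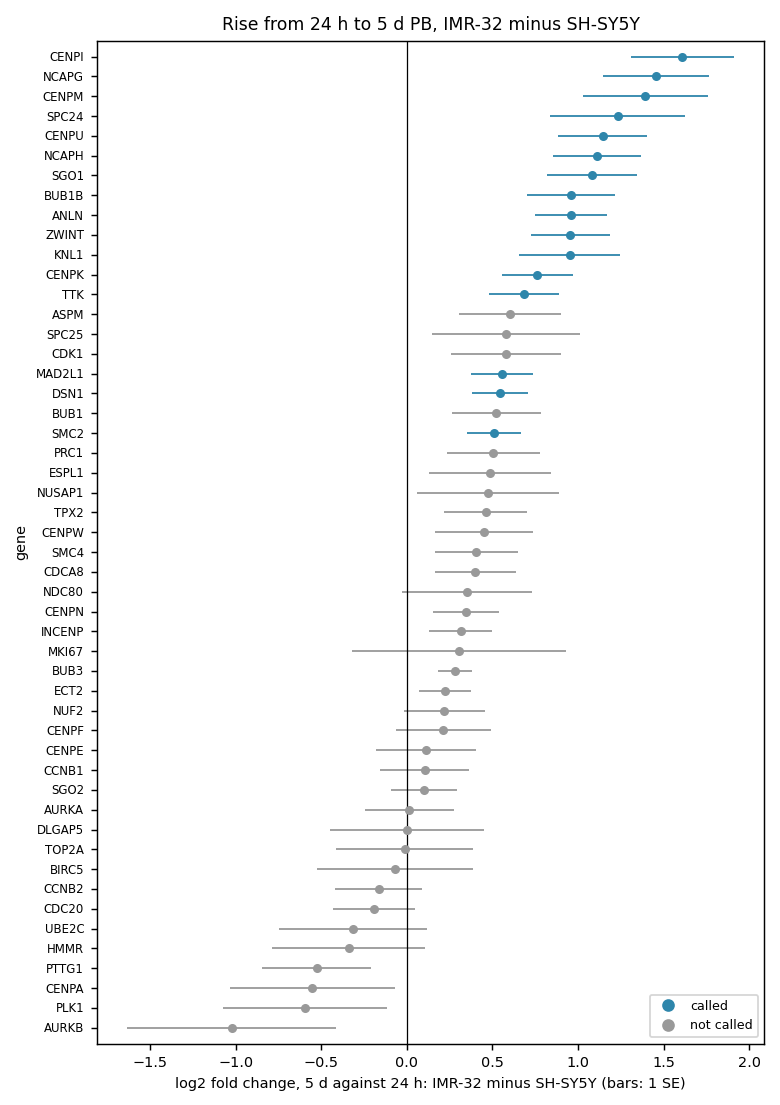
Difference between IMR-32 and SH-SY5Y in the log2 fold change from 24 h to 5 d of PB (horizontal axis, IMR-32 minus SH-SY5Y) for each of the 50 genes, with bars of 1 SE; blue marks genes called at an adjusted p under 0.05 and a difference over 0.5. The 16 called genes lie between 0.51 (SMC2) and 1.61 (CENPI), and AURKB lies lowest at -1.02 with a wide error.

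Relative to control, 16 genes stood higher at 5 d in IMR-32 than in SH-SY5Y, beside 9.46% of all genes, and 0 stood lower with edgeR, beside 11.3%, with 29 and 0 genes at an unadjusted p under 0.05. They were PLK1, BIRC5, CDCA8, MAD2L1, UBE2C, CENPU, NDC80, SPC24, ZWINT, CENPE, CENPF, PRC1, ASPM, MKI67, NCAPG and NCAPH. MKI67 differed most, by 1.91 ± 0.62 (SE), adjusted p = 0.0161. This comparison and the 24 h one share their controls, and this one and the return share the 5 d libraries. The count ranged from 9 without SH-SY5Y 5 d replicate 1, and 10 without SH-SY5Y 5 d replicate 2 or IMR-32 5 d replicate 5, to 27 without IMR-32 control replicate 5 and 29 without SH-SY5Y 5 d replicate 5, and it was 27 with the replicate block.

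Further genes of the same machinery, listed by function, were tested in the same fits, in which 10.6%, 10.5% and 11.0% of all genes were called lower than control at 24 h, and with longer PB 22.3%, 15.5% and 17.3% were. Between 24 h and the longer time 17.5%, 10.8% and 10.5% of all genes were called higher, and 14.4%, 8.86% and 6.23% lower. Of 25 further kinetochore and centromere genes, 20, 19 and 20 were called lower at 24 h in the 3 lines, with medians of -0.71, -1.03 and -1.11 on the log2 scale, and 4, 13 and 8 were called higher at the longer time than at 24 h, with 1, 0 and 1 called lower, so that the 4 in SK-N-BE(2)C lie near the share over all genes. HJURP, the chaperone that loads CENPA, and SKA3 of the SKA complex fell most in this list, and CENPT and MAD1L1 least. HJURP averaged 92.4 ± 1.95 CPM in control and 10.2 ± 3.43 CPM at 24 h in SK-N-BE(2)C (SD, n = 5). CENPT averaged 54.8 ± 2.76 CPM in control, 56.1 ± 4.83 CPM at 24 h and 81.1 ± 9.40 CPM at 7 d in that line. Against control CENPT was called higher at the longer time in SK-N-BE(2)C (0.57 on the log2 scale) and IMR-32 (0.64) and measured 0.35 in SH-SY5Y, while 19, 13 and 18 of the 25 genes were called lower. Of 25 further mitotic genes, listed as regulated ones, all 25 were called lower at 24 h in each line, with medians of -2.07, -2.29 and -2.44. The list was drawn up with earlier results of these data known, so this count is a description. Of these 25 genes 7, 23 and 17 were higher at the longer time than at 24 h, with 1, 0 and 0 lower, and 24, 22 and 24 were then lower than control. CDCA3, a trigger of mitotic entry, and CKAP2L of the spindle fell most in that list, and TRIP13 and NCAPD3 least. The 15 genes listed for the anaphase-promoting complex include its activator FZR1, which had the lowest 24 h value of the list in SK-N-BE(2)C (-0.61). Of the 15, 2, 0 and 2 were called lower at 24 h, with medians of -0.18, -0.24 and -0.15. At the longer time 6, 4 and 3 were called lower than control, where the medians were -0.45, -0.20 and -0.15. Of 10 cohesin genes 6, 7 and 7 were called lower, with medians of -0.60, -0.63 and -0.60. In this list 0, 1 and 0 were higher at the longer time than at 24 h, and 6, 4 and 6 were then called lower than control.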

How the data were processed

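RNA-seq was measured in 45 libraries, 5 per group in 9 groups, from poly(A) RNA with a directional kit and paired reads. The authors trimmed the reads with Trim Galore 0.6.4, aligned them to hg19 with STAR (2.6.1d in the submitters' processing notes, while the study's methods name another release) and deposited the counts per gene that STAR gave, 1 table per line. Which strand column was taken is not stated. The deposited tables of CPM and of DESeq2 1.32.0 output (the authors' fold changes and p-values) were not used.

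Counts were fitted per line with edgeR 4.0.16 (R 4.3.3): filterByExpr (minimum 10 counts, total 15), TMM factors and the robust quasi-likelihood F test, with Benjamini-Hochberg adjustment over all genes tested (14547 in SH-SY5Y, 14293 in IMR-32, 14055 in SK-N-BE(2)C). All 50 genes passed the filter in each line. A call needed an absolute log2 fold change above 0.5 at an adjusted p under 0.05. The SE is the unshrunken log2 fold change over the square root of F. Differences between lines were contrasts in 1 fit of 45 libraries (16282 genes). With 13459219 to 25441812 counts per library, a gene near 1 CPM rests on few counts, and errors cover the spread between these replicates only. The scripts were tested on simulated data. No 2 replicates agreed within sampling noise (chi-square over its degrees of freedom 1.65 to 81.1 in 90 pairs).

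The replicate numbers paired the samples in all comparisons of IMR-32 and SH-SY5Y, where the lowest correlation of deviations from the group means was 0.107, and in SK-N-BE(2)C for 24 h against control (0.244), but not for 7 d (0.0965 and 0.0491). The study's methods state no block, so the block is an alternative. Other alternatives were DESeq2 1.42.0, its size factors, library size alone, no filter, adjusted p alone and each library left out in turn. Leaving out IMR-32 replicate 5, or SK-N-BE(2)C replicates 1 and 2, from all groups was chosen after seeing the data.

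The members, gene lists and tests were chosen with earlier results of these data known. Genes were named by rule: the gene with the highest mean CPM in each of 8 role groups, the 5 deepest and 5 shallowest mean falls at 24 h, the 3 largest and 3 smallest changes from 24 h to longer PB in each line, the 3 largest differences each way between IMR-32 and SH-SY5Y in that change, and in each further list the 2 largest and 2 smallest changes at 24 h. Other genes with values were named after their values were seen. Gene positions are on GRCh37 (GENCODE lifted annotation), promoter sequences from RefSeq on GRCh38.p14, and figures were drawn with matplotlib 3.10.9.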

Additional observations from a re-analysis of the deposited data

Results flagged for a closer look

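Among 81 groups and measures checked for a library far from the other 4 of its group, 6 had one, where chance flags about 1 in 20. IMR-32 control replicate 5 was far above the other controls in the summed CPM of the 50 genes (10343), in CCNB1 (216 CPM), in ESPL1 (205 CPM) and in TPX2 (421 CPM). IMR-32 5 d replicate 5 was far above the other 5 d libraries in BUB3 (261 CPM). SH-SY5Y control replicate 2 was far below the other controls in TPX2 (254 CPM).

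Lines differed by a test of the difference itself in 5 comparisons. At 24 h the response differed for 9 genes between SK-N-BE(2)C and IMR-32, for 4 between SK-N-BE(2)C and SH-SY5Y and for 2 between IMR-32 and SH-SY5Y. From 24 h to 5 d, and again from control to 5 d, it differed for 16 genes between IMR-32 and SH-SY5Y. The part of cell number, time in culture and passage in these differences was not tested.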

How the results depend on the processing

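When recomputed, 342 results stayed and 40 moved. A count stayed if it lay within 1.5 times the reported count. The median levels as a percent of control, recomputed with library size alone, stayed if they moved by less than their SD between libraries. Direction was not scored in either case. The counts of genes that had fallen at 24 h or stood below control at the longer time, and of those that rose in IMR-32 and SH-SY5Y, were among those that stayed. The 9 genes that rose in SK-N-BE(2)C became 5 with no filter on low counts and 16 with adjusted p alone, and ranged from 5 (without 24 h replicate 3 or 7 d replicate 1) to 19 (without 7 d replicate 3) when single libraries were left out. The 9 genes with a different 24 h response between SK-N-BE(2)C and the IMR-32 line became 14 with library size alone, 14 with the replicate block, 2 without SK-N-BE(2)C replicates 1 and 2, and 7 to 15 without single libraries (15 without IMR-32 24 h replicate 5). The 4 between SK-N-BE(2)C and SH-SY5Y became 1 with no filter, 7 with the replicate block, 0 without SK-N-BE(2)C replicates 1 and 2 (6 at an unadjusted p under 0.05 with edgeR), and 1 to 5 without single libraries. They were 1 or 2 without SK-N-BE(2)C control replicates 2, 3, 4 or 5, 24 h replicates 1, 2 or 4 or 7 d replicate 5, or without SH-SY5Y control replicates 1, 3, 4 or 5 or 24 h replicates 2, 3 or 5. The 2 between IMR-32 and SH-SY5Y became 1 with no filter, 12 with the replicate block, 5 without IMR-32 replicate 5, and 2 to 9 without single libraries (9 without SH-SY5Y 5 d replicate 1, 5 without IMR-32 control replicate 5, 4 without IMR-32 24 h replicate 5 or SH-SY5Y 24 h replicate 4). The 16 genes higher relative to control at 5 d in IMR-32 than in SH-SY5Y became 27 with the replicate block and 9 to 29 without single libraries (9 without SH-SY5Y 5 d replicate 1, 10 without IMR-32 5 d replicate 5 or SH-SY5Y 5 d replicate 2, 27 without IMR-32 control replicate 5, 29 without SH-SY5Y 5 d replicate 5). The cause was not tested in these cases. The block moved no other count by over 1.5 times. At the longer time DESeq2 called 45 genes higher than at 24 h in SH-SY5Y, 47 in IMR-32 and 12 in SK-N-BE(2)C. Most recomputed counts, here and above, are given without the share over all genes in the same setting. They show how far a count moved, and not whether it exceeds that share.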

Other observations

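Subunits of the anaphase-promoting complex and cohesin genes were measured in the same libraries. CDC27, a core subunit of the complex, averaged 169 ± 5.47 CPM in control and 123 ± 10.2 CPM at 24 h in SK-N-BE(2)C (SD, n = 5), a log2 fold change of -0.46, with -0.50 in both other lines. ANAPC13, a small subunit, averaged 53.1 ± 2.31 CPM in control and 62.2 ± 2.85 CPM at 24 h in SK-N-BE(2)C. ANAPC15 averaged 36.4 ± 2.24 CPM in control, 24.4 ± 2.41 CPM at 24 h and 14.8 ± 1.83 CPM at 7 d in that line, and against control it was called lower at the longer time in each line, by -1.04 on the log2 scale in SH-SY5Y, -0.66 in IMR-32 and -1.30 in SK-N-BE(2)C (edgeR). At 24 h its values were -0.61, -0.24 and -0.57 in the same order, of which that of IMR-32 was not called. ANAPC16 measured 0.34 at 24 h in IMR-32 and was not called.

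The cohesin ring subunit SMC1A averaged 671 ± 52.9 CPM in control and 292 ± 18.3 CPM at 24 h in SH-SY5Y, and its log2 fold change was -1.20 there, -1.09 in IMR-32 and -1.01 in SK-N-BE(2)C. STAG1, which binds the ring, changed by -1.08 in SH-SY5Y, -0.91 in IMR-32 and -1.14 in SK-N-BE(2)C. For the cohesin loader the values, in the same order of lines, were -0.14, -0.12 and -0.09 for NIPBL and 0.24, 0.36 and 0.22 for its partner MAU2, none of which was called.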
